A study of Homo sapiens with 12 samples.

Results

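The 49 genes described here carry a cell through the G2 phase and mitosis. They were chosen by symbol from a list of mitotic regulators, and 49 of 49 were found in each of the 2 deposited expression tables, among 60671 genes in the table of LA libraries and 60666 in that of PGN libraries. All 49 are protein-coding, and they fall into 9 roles: kinases, cyclins and their regulators (11 genes), a transcription factor (1), the spindle checkpoint (5), centromere and kinetochore (8), kinesins (8), spindle assembly (5), cytokinesis (4), the anaphase-promoting complex with its E2 enzymes and targets (5), and chromosome structure (2).

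The cells were SZ95 sebocytes, an immortalised human line from the sebaceous gland, in 12 RNA-seq libraries that form 4 groups of 3 described as biological replicates. One pair of groups received LA or LA with RVT, and the other received PGN or PGN with RVT, so every group carries a stimulus and no untreated group was analysed here. RVT is resveratrol, a plant polyphenol, according to the title of the series, which names lipid accumulation, inflammation and AMPK as its subjects. The labels do not expand LA and PGN, which are taken to be linoleic acid, known to load sebocytes with lipid, and peptidoglycan, a bacterial cell wall polymer that provokes inflammation. Doses and times were not used here.

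Entry into mitosis is driven by CDK1 bound to B-type cyclins, helped by Polo and Aurora kinases, and exit from it by the anaphase-promoting complex, a ubiquitin ligase that marks cyclin B and securin for destruction. Most genes of this programme are silent early in the cell cycle and are transcribed together in G2, through promoter elements called CHR (cell cycle genes homology region) and CCAAT, to which the DREAM, MuvB, FOXM1 and NF-Y proteins are known to bind. In the sebaceous gland, cells divide at the periphery and stop dividing as they fill with lipid, so these genes mark the dividing compartment.

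Values are taken to be TPM, a share of each library's transcripts corrected for length, from the library sums given next, since the file headers do not name the unit. The libraries summed to between 994373 and 997060 TPM, and 14489 to 15452 genes reached 1 TPM in a library. Depth is unknown, so no counting interval can be given. Of 16 sebocyte markers, 13 had a mean of at least 1 TPM, and AWAT1, AWAT2 and MC5R, which are genes of late sebocyte differentiation, lay below it. The summed level of the 16 markers ran from 6905 to 7077 TPM with LA, 8005 to 8026 TPM with LA+RVT, 9887 to 10057 TPM with PGN and 10383 to 10619 TPM with PGN+RVT. Most of it came from the keratins KRT7, KRT8, KRT18 and KRT19, which averaged 1203 to 1754 TPM each with LA. By limma (adjusted p under 0.05), 4 of 13 tested were higher and 1, MUC1, lower under LA. Under PGN 4 of 12 were higher and 1, PPARG, lower. Of all genes, 10.7% were higher and 5.07% lower under LA, and 10.6% and 4.92% under PGN. Of markers of other cells, 6 of 7 keratinocyte, 2 of 8 fibroblast, 2 of 6 melanocyte, 1 of 6 immune and 1 of 5 endothelial genes reached a mean of 1 TPM. The keratinocyte sum ran from 243 to 256 TPM with LA, 209 to 217 TPM with LA+RVT, 516 to 537 TPM with PGN and 429.9 to 433 TPM with PGN+RVT. Fibroblast sums stayed between 10.4 and 16.4 TPM in all libraries, and immune sums between 1.87 and 5.38 TPM. Melanocyte sums were 25.7 to 27.4 TPM with LA, 31.3 to 33.6 TPM with LA+RVT, 19.4 to 24.98 TPM with PGN and 29.8 to 31.2 TPM with PGN+RVT, and endothelial sums 17.6 to 18.04, 7.28 to 8.1, 24.9 to 26.5 and 23.4 to 24.1 TPM in the same order. The part of these markers in the results was not tested.

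Promoter sequence was examined as background to the list. The members were chosen as mitotic genes, a class known for these elements. A high share of matches therefore follows from that choice and says nothing of RVT. RefSeq windows on GRCh38.p14, from 250 bases before to 50 bases after the start, were matched by symbol for 41 members, of which 35 have 1 window and are counted here, as are 22114 genes with 1 window in all. Both strands were searched for TTTGAA (the CHR core, which reads TTCAAA on the other strand), for its variant TTCGAA (which is its own reverse complement) and for CCAAT, the box that NF-Y is known to bind. The reverse of that box, ATTGG, was counted with it. The core TTTGAA was in 27 of 35 member windows (77.1%) and in 16.02% of all windows, TTCGAA in 2 of 35 (5.71%) and 1.501%, and CCAAT in 29 of 35 (82.9%) and 36.2%. A CHR form together with CCAAT was in 24 of 35 (68.6%) and in 6.91% of all. A CHR form lay within 50 bases of the start in 24 members and in 5.34% of all windows, and 18 members held 2 or more CCAAT. Such matches are descriptions of letters and not of bound sites. CHR letters were in windows of members called as higher with RVT and of members not called as fitted, such as MKI67, CKS1B and NUF2. Windows without them belonged to members of both kinds too, such as KIF20A (called) and CCNA2 (not called). A link between matches and calls was not tested.

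Windows are printed for 6 members on which the results turn, with motif letters in capitals, 5′ to 3′ on the gene's own strand. CCNB2 (chr15:59104896-59105195, plus strand) and PLK1 (chr16:23678639-23678938, plus) are mitotic drivers, CKS2 (chr9:89310945-89311244, plus) was higher with RVT under both stimuli, and KIF20A (chr5:138178862-138179161, plus) had the lowest adjusted p among the members under PGN. PRC1 (chr15:90994486-90994785, minus) and UBE2S (chr19:55407739-55408038, minus) had the 1 LA+RVT group wholly below its control and the largest fold change under LA, respectively.
CCNB2: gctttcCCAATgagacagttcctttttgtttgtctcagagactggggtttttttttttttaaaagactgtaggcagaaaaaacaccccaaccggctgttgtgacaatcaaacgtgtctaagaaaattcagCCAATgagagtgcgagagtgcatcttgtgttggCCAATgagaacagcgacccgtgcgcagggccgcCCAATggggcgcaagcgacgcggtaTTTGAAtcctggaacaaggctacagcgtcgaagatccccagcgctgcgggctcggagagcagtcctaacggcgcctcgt
PLK1: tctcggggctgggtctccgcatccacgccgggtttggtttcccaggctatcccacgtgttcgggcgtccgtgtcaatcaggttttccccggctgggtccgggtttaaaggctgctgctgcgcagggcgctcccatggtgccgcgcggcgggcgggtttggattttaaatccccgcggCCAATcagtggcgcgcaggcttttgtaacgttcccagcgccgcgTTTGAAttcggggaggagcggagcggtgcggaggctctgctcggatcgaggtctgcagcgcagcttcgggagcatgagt
CKS2: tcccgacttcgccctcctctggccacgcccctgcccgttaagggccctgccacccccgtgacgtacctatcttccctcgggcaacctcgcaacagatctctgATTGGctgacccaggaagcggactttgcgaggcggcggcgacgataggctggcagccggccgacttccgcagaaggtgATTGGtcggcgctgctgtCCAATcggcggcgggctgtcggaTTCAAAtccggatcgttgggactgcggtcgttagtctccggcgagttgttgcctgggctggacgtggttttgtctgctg
PRC1: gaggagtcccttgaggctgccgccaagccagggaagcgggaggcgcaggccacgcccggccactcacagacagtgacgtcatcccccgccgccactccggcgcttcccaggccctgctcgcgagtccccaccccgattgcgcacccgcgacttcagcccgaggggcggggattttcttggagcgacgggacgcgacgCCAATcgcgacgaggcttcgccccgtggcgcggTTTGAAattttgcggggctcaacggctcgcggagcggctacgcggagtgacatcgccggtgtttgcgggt
KIF20A: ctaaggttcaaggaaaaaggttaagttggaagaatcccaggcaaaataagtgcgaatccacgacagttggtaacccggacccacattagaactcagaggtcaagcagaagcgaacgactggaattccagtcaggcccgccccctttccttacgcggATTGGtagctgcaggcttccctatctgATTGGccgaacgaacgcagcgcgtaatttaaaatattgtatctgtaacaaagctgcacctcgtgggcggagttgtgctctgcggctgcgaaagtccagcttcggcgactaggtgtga
UBE2S: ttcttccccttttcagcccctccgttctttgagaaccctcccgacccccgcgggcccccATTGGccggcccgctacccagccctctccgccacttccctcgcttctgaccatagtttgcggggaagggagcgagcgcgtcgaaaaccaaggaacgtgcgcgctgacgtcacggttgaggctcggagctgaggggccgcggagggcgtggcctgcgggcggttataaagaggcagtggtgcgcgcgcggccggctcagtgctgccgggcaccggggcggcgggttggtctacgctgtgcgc
CCNB2 has 4 CCAAT followed by TTTGAA, CKS2 has 3, of which 2 read on the other strand, followed by the CHR letters of the other strand, and PLK1 and PRC1 have 1 each followed by TTTGAA. KIF20A has 2 CCAAT on the other strand and neither CHR form in this window, and UBE2S has 1 and neither CHR form.

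**Figure D1:**
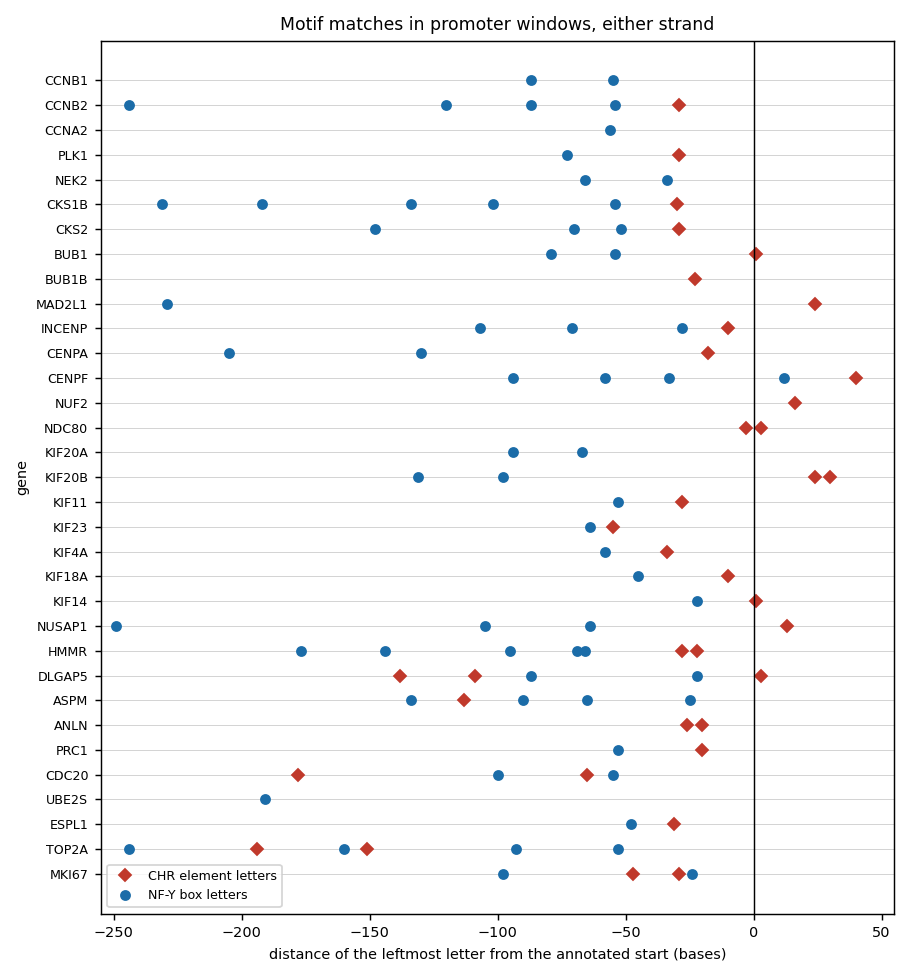
Motif letters in the promoter windows of the 33 members with a match, out of 35 with 1 window. The horizontal axis is the distance in bases of the leftmost letter of each match from the RefSeq start, each row is a gene, with diamonds for CHR forms and circles for CCAAT, the box of NF-Y. CHR letters gather near the start, within 50 bases of it in 24 members.

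With RVT, a minority of the 49 genes passed as higher under LA, all but 1 by small amounts, and a majority under PGN. Under LA, 20 of 49 members passed the test as higher and 0 as lower, against 10.7% of the 15409 genes tested as higher and 5.07% as lower. In the PGN libraries 31 of 49 passed as higher and 0 as lower, against 10.6% and 4.92% of 14622 genes. The test was limma on log2(TPM + 1), two-sided, with Benjamini-Hochberg adjustment over all genes and a threshold of 0.05. An unadjusted p below that value was found for 27 members under LA and 37 under PGN. Over all genes it was found for 4716 of 15409 under LA and 4498 of 14622 under PGN. Among members called, the ratio of group means ran from 1.08 to 3.09 under LA, where UBE2S stood alone and the next ratio was 1.38, and from 1.14 to 1.55 under PGN. Over all 49 members the median log2 fold change was 0.14 under LA, against 0.036 for all genes, and 0.35 under PGN, against 0.064. The LA median of the members was 0.089 with library medians equalised, where that of all genes was -0.011, and 0.089 with mitochondrial and ribosomal protein genes left out, where that of all genes was -0.0076. In bulk RNA, a change in the share of cells in G2 and mitosis and a change in RNA per cell cannot be told apart.

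The 49 genes summed to 5308 ± 31.6 TPM with LA and 5901 ± 39.4 TPM with LA+RVT (SD, n = 3), which is 0.533% and 0.592% of the library. With PGN the sum was 4767 ± 149 TPM and with PGN+RVT 5781 ± 62.5 TPM (SD, n = 3), or 0.479% and 0.581%. All sums with RVT lay above all sums without it under either stimulus. UBE2S alone averaged 63.4 TPM with LA and 196.2 TPM with LA+RVT, which is part of the rise in the LA sum. The 2 tables were made with gene models that differ in part, so levels in LA and PGN libraries are set side by side and were not tested against each other. Single members had no overlap between the 3 libraries with and the 3 without RVT, with RVT above, for 25 of 49 under LA (23.4% of all genes tested) and for 37 of 49 under PGN (24.7%). PRC1 under LA and CDC25B under PGN were the 1 member each with RVT below (12.8% and 11.4% of all genes).

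**Figure D2:**
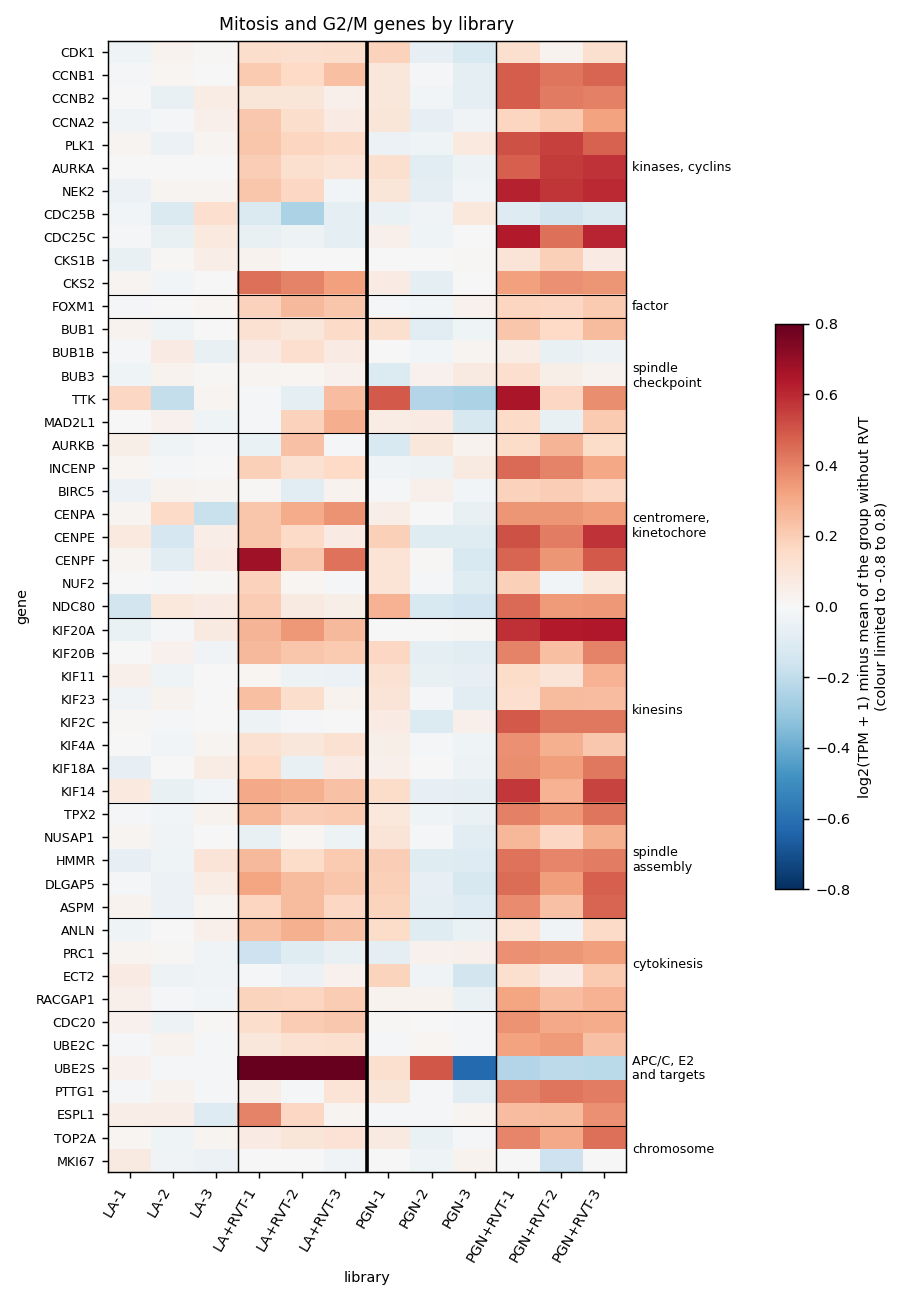
Each row is 1 of the 49 genes, ordered by role, and each column 1 of 12 libraries, and the colour gives log2(TPM + 1) minus the gene's mean over the 3 libraries without RVT of the same stimulus, limited to between -0.8 and 0.8. The contrast between libraries with and without RVT is stronger on the PGN side, where 31 genes passed the test, than on the LA side, where 20 did, and PGN replicate 1 is redder than the other PGN libraries.

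The effect of RVT was itself compared between the stimuli, as the log2 fold change under PGN minus that under LA. Each effect was formed within its own table. Stimulus goes with table here, so it cannot be told apart from anything else that sets the LA and PGN arms apart. Larger effects under PGN were called for 16 members (7.73% of 15177 genes tested were) and a smaller one for 1, UBE2S (7.03%), and 40 of 49 differences were positive, with a median of 0.16 against 0.026 for all genes. Both arms called 17 members, which is 85.0% of the LA calls and 54.8% of the PGN calls. CDK1, ANLN and UBE2S were called under LA but not under PGN, 14 members under PGN but not under LA, and 15 in neither.

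**Figure D3:**
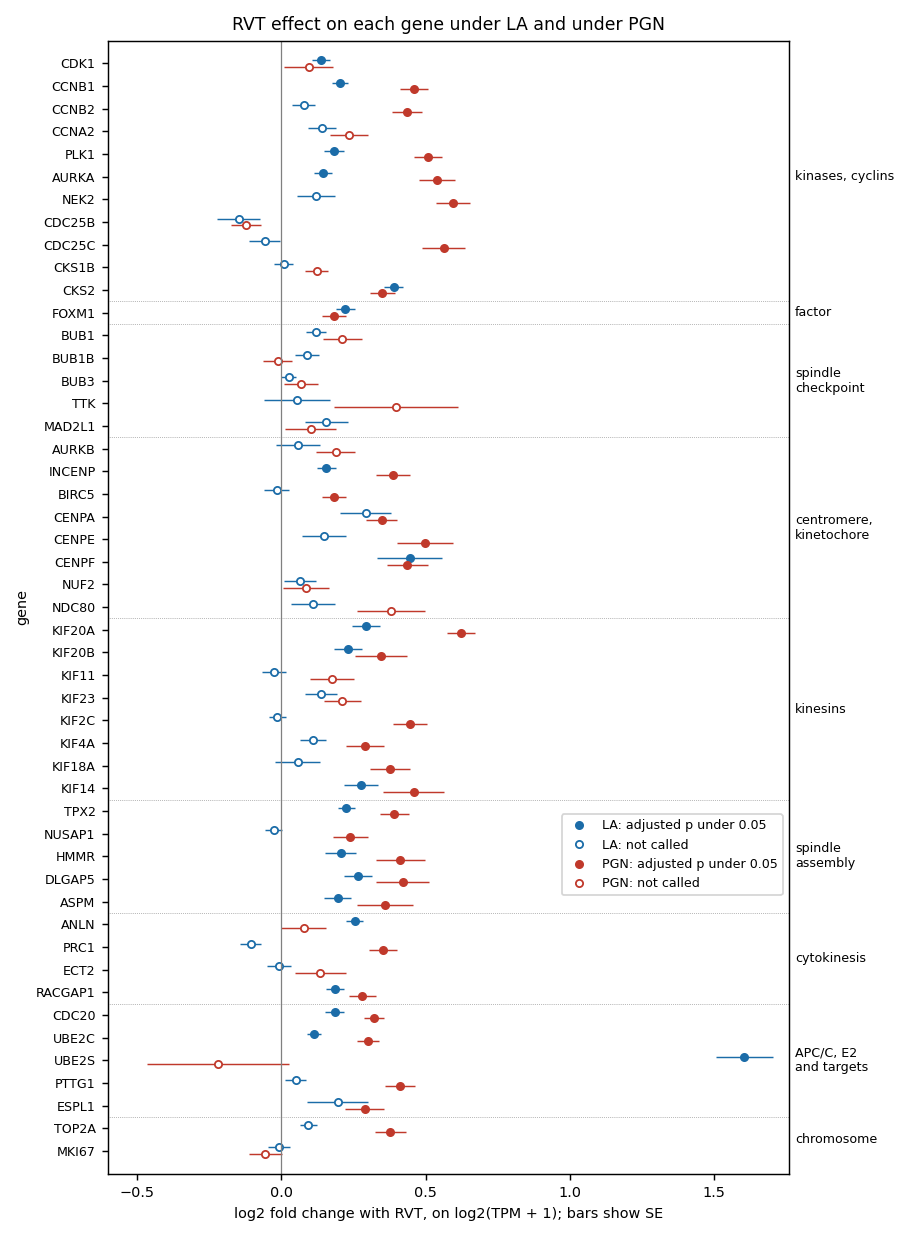
Log2 fold change with RVT (horizontal axis, bars show SE) of each of the 49 genes (rows, by role), under LA in blue and under PGN in red, with filled points for an adjusted p under 0.05. The red point lies to the right of the blue one in 40 of 49 genes, and UBE2S under LA (1.60) lies far to the right of all others.

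These counts changed when single libraries were left out and with scaling, as did those of all genes. An omission also leaves fewer libraries to test, which was not separated from the weight of the library left out. Under LA, 12 members were called as higher without LA replicate 1, 12 without LA replicate 3, 13 without LA+RVT replicate 1 and 13 without LA+RVT replicate 2. Of all genes, 999, 1006, 1091 and 1015 were called as higher in these fits, against 1645 with all libraries. In the PGN arm the count was 20 without PGN replicate 2, 19 without PGN+RVT replicate 1, 20 without PGN+RVT replicate 3 and 34 without PGN replicate 1. Those of all genes were 785, 690, 729 and 1270 in the same order, against 1557 with all libraries. PGN replicate 1 stood apart, with 37 of 49 members above their group mean and a median deviation of 0.087 on the log2 scale, against 0.026 for all genes. With library medians equalised the members called as higher were 13 under LA and 25 under PGN, while the split of all genes went from 1645 higher and 781 lower to 1041 and 1080 under LA, and from 1557 and 720 to 850 and 1020 under PGN. The LA split was 1013 and 971 with mitochondrial and ribosomal protein genes left out and 1187 and 967 with GC and length trends removed, and with the latter the PGN split was 1137 and 1223. The calls lost with equalised medians were those of CDK1, AURKA, INCENP, CENPF, HMMR, ASPM and UBE2C under LA, of FOXM1, BIRC5, KIF4A, NUSAP1, ASPM and ESPL1 under PGN, and of INCENP, BIRC5, KIF18A and UBE2C for the difference. Conversely, 4 members not called under LA, 9 under PGN and 7 for the difference passed under at least 1 alternative, among them PRC1 under LA and CDC25B and UBE2S under PGN as lower. No member that had passed the test changed direction under any scaling, and calls kept under every alternative setting numbered 10 of 20 under LA, 19 of 31 under PGN and 12 of 17 for the difference.

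Of the 11 kinases, cyclins and regulators, 5 were called as higher under LA, 7 under PGN and 6 for the difference. In shares these are 45.5%, 63.6% and 54.5%, against 10.7%, 10.6% and 7.73% of all genes. The same shares of all genes are the background for the counts of each role below. Values with ± are log2 fold changes and their standard errors from the fit. CCNB1, the cyclin that activates CDK1 at mitotic entry, was raised under both stimuli. CCNB1 measured 234, 239.6 and 237 TPM in the LA libraries and 274, 265 and 279.9 TPM in the LA+RVT libraries. With PGN, CCNB1 measured 289.9, 269.6 and 259 TPM, and with PGN+RVT 382, 367 and 376 TPM. Both RVT groups lay wholly above their controls (the same stimulus without RVT), with a wider gap under PGN. CCNB1 had a log2 fold change of 0.20 ± 0.028 under LA (adjusted p = 0.00539) and of 0.46 ± 0.049 under PGN (adjusted p = 0.00158), with a difference of effects of 0.26 ± 0.057 (adjusted p = 0.0113). PLK1, the Polo kinase of centrosome maturation and chromosome segregation, followed the same course. PLK1 measured 125, 119 and 125 TPM in the LA libraries and 143, 139 and 137 TPM in the LA+RVT libraries. With PGN, PLK1 measured 126, 127 and 137 TPM, and with PGN+RVT 185, 190.2 and 180.1 TPM. No PLK1 value without RVT reached a value with RVT under the same stimulus. For PLK1, the log2 fold change was 0.18 ± 0.034 with an adjusted p of 0.0141 under LA and 0.51 ± 0.049 with an adjusted p of 0.00113 under PGN, and the difference of effects was 0.33 ± 0.058 (adjusted p = 0.00354). AURKA, the kinase that matures centrosomes and builds the bipolar spindle, was called in both arms and for the difference. AURKA measured 178, 179 and 179 TPM in the LA libraries and 205, 195 and 193 TPM in the LA+RVT libraries. With PGN, AURKA measured 174, 149.8 and 155 TPM, and with PGN+RVT 222, 235 and 239 TPM. Control and RVT values of AURKA were separate under both stimuli, by a wide margin only under PGN. The AURKA effect of RVT was 0.14 ± 0.031 (log2, adjusted p = 0.0246) under LA, 0.54 ± 0.063 (adjusted p = 0.00248) under PGN and 0.39 ± 0.074 (adjusted p = 0.00465) as a difference between them.

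NEK2, a kinase that lets the centrosomes part, and CDC25C, the phosphatase that removes inhibitory phosphates from CDK1, passed the test under PGN and not under LA, and for each the difference between stimuli passed as well. NEK2 measured 59.6, 62.6 and 62.7 TPM in the LA libraries and 71.9, 69.2 and 60.7 TPM in the LA+RVT libraries. With PGN, NEK2 measured 39.1, 34.6 and 35.9 TPM, and with PGN+RVT 56.5, 54.6 and 55.7 TPM. LA+RVT replicate 3 lay among the LA values of NEK2, while the PGN groups were far apart. NEK2 had a log2 fold change of 0.12 ± 0.066 under LA (adjusted p = 0.268) and of 0.60 ± 0.060 under PGN (adjusted p = 0.00131), with a difference of effects of 0.47 ± 0.091 (adjusted p = 0.00525). Without that library NEK2 was called under LA too (0.19, adjusted p = 0.0493). CDC25C measured 25.9, 25.1 and 27.7 TPM in the LA libraries and 25.1, 25.4 and 24.9 TPM in the LA+RVT libraries. With PGN, CDC25C measured 14.1, 13.3 and 13.6 TPM, and with PGN+RVT 21.7, 18.9 and 21.4 TPM. LA and LA+RVT values of CDC25C were level, and the PGN+RVT values lay well above the PGN values. For CDC25C, the log2 fold change was -0.058 ± 0.053 with an adjusted p of 0.509 under LA and 0.56 ± 0.074 with an adjusted p of 0.00373 under PGN, and the difference of effects was 0.62 ± 0.087 (adjusted p = 0.000810). CDC25C shares 293 exon bases with FAM53C on the opposite strand. FAM53C averaged 29.4 TPM with LA, 32.1 with LA+RVT, 27.7 with PGN and 37.7 with PGN+RVT. The part of FAM53C in the CDC25C values was not tested. CKS2, a small protein that docks on CDK1 and its substrates, rose by nearly the same amount under both stimuli. CKS2 measured 239, 232 and 234 TPM in the LA libraries and 319, 310.1 and 296 TPM in the LA+RVT libraries. With PGN, CKS2 measured 275, 249.8 and 263 TPM, and with PGN+RVT 330.2, 339 and 336 TPM. RVT values of CKS2 lay above all control values in both arms. The CKS2 effect of RVT was 0.39 ± 0.033 (log2, adjusted p = 0.000852) under LA, 0.35 ± 0.044 (adjusted p = 0.00319) under PGN and -0.039 ± 0.055 (adjusted p = 0.699) as a difference between them.

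CCNB2 and CDK1, taken up after their values were seen, were each called under 1 stimulus, CCNB2 under PGN and CDK1 under LA. The difference between stimuli was called for CCNB2 (0.36 ± 0.067, adjusted p = 0.00473) and not for CDK1 (-0.043 ± 0.094, adjusted p = 0.816), so the effects on CDK1 were not shown to differ. CCNB2, the second mitotic B cyclin, averaged 111 ± 4.82 TPM with LA, 117 ± 2.61 with LA+RVT, 103 ± 5.88 with PGN and 140.1 ± 4.07 with PGN+RVT (SD, n = 3), with effects of 0.078 ± 0.040 (adjusted p = 0.245) and 0.43 ± 0.053 (adjusted p = 0.00291). The catalytic subunit CDK1 averaged 111 ± 2.601, 122 ± 0.492, 81.4 ± 9.51 and 86.6 ± 3.499 TPM in the same order, with effects of 0.14 ± 0.030 (adjusted p = 0.0250) and 0.094 ± 0.084 (adjusted p = 0.494). CDK1 and AURKA kept their LA calls in 1 of 6 fits that left out a library, CDK1 without LA replicate 2 and AURKA without LA+RVT replicate 3, with adjusted p up to 0.0727 and 0.0751 otherwise. CCNA2, CDC25B and CKS1B, a cyclin, a phosphatase and a CDK-binding protein, were not called in any comparison as fitted, and their ratios of means with RVT to without ran from 0.8998 (CDC25B under LA) to 1.18 (CCNA2 under PGN). With GC and length trends removed, CDC25B was called as lower under PGN (log2 fold change -0.28, adjusted p = 0.0110) and CCNA2 as higher (0.20, adjusted p = 0.0285), and CCNA2 was called without PGN replicate 1 as well (0.28, adjusted p = 0.0362).

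**Figure D4:**
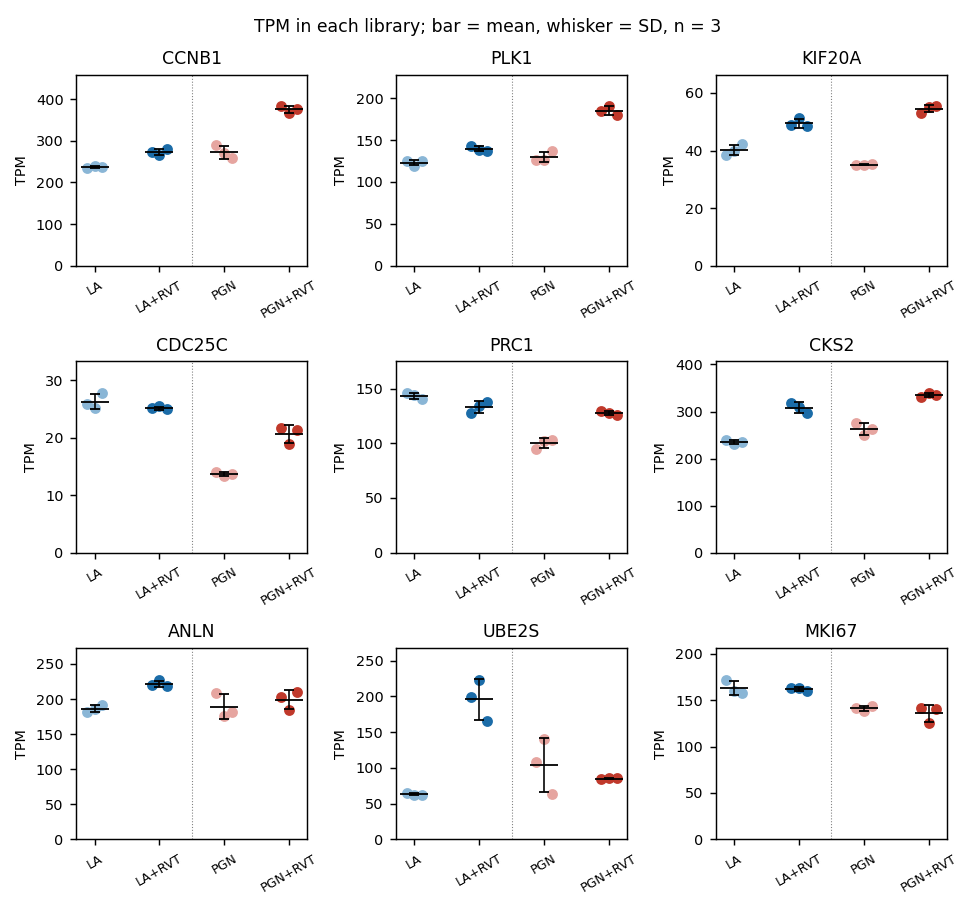
TPM (vertical axes, from 0) in each library of the 4 groups for 9 members, with 1 point per library, a bar at the mean and whiskers of 1 SD (n = 3). CCNB1, PLK1, KIF20A and CKS2 are higher with RVT in both arms, CDC25C and PRC1 in the PGN arm and ANLN in the LA arm, MKI67 overlaps throughout, and UBE2S stands at 166 to 223 TPM in the LA+RVT libraries and at 62.7 to 64.8 TPM in the LA libraries.

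FOXM1, the transcription factor that switches on many of these genes in G2, was somewhat higher with RVT in both arms. FOXM1 measured 90.7, 91.5 and 92.5 TPM in the LA libraries and 104, 109.8 and 107 TPM in the LA+RVT libraries. With PGN, FOXM1 measured 82.8, 81.9 and 85.2 TPM, and with PGN+RVT 93.9, 93.6 and 96.3 TPM. Controls and RVT libraries were separate, and each group spanned a narrow range. FOXM1 had a log2 fold change of 0.22 ± 0.032 under LA (adjusted p = 0.00611) and of 0.18 ± 0.042 under PGN (adjusted p = 0.0282), with a difference of effects of -0.040 ± 0.047 (adjusted p = 0.643). Its call under PGN was lost without PGN replicate 2 and without each PGN+RVT library, with adjusted p up to 0.0996. FOXM1 shares 781 exon bases with ITFG2 on the opposite strand, which averaged 17.9, 21.5, 19.96 and 18.8 TPM in the 4 groups, and no source used here says whether strand was used in counting. Exons of 18 of the 49 members overlap another gene, and for 8 members an overlapping gene averaged 10 TPM or more in a group.

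Spindle checkpoint genes, whose products hold back anaphase until every chromosome is attached, were not called in any of the 3 comparisons as fitted (0 of 5 in each, by limma). Their log2 fold changes ran from 0.026 to 0.16 under LA and from -0.013 to 0.40 under PGN. An unadjusted p below 0.05 was found for 1 of the 5 in each arm and 0 for the difference. Over all genes it was found for 4716 of 15409 under LA, 4498 of 14622 under PGN and 4296 of 15177 for the difference. BUB3, the WD-repeat partner of the BUB1 and BUBR1 kinases, is the most abundant. BUB3 measured 236, 246 and 243 TPM in the LA libraries and 246, 245 and 248 TPM in the LA+RVT libraries. With PGN, BUB3 measured 210.5, 233 and 239 TPM, and with PGN+RVT 249, 235 and 232 TPM. BUB3 values overlapped between groups in both arms. For BUB3, the log2 fold change was 0.026 ± 0.026 with an adjusted p of 0.553 under LA and 0.068 ± 0.058 with an adjusted p of 0.474 under PGN, and the difference of effects was 0.042 ± 0.066 (adjusted p = 0.733). With library medians equalised the LA value was -0.022. The largest fold change among them was that of TTK, the MPS1 kinase, looked up after its value was seen, whose PGN libraries stood at 34.96, 20.8 and 20.5 TPM and PGN+RVT libraries at 39.4, 27.8 and 32.2 TPM, overlapping because PGN replicate 1 was high (adjusted p = 0.260). Checkpoint calls were gained when single libraries were left out. Without PGN replicate 1, TTK (log2 fold change 0.64, adjusted p = 0.0347) and BUB1 (0.28, adjusted p = 0.0247) were called as higher under PGN, and without LA+RVT replicate 1, MAD2L1 was under LA (0.24, adjusted p = 0.0391). BUB1 also passed under PGN with GC and length trends removed (adjusted p = 0.0433) and with 1 spread over 12 libraries (adjusted p = 0.0181).

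Of 8 centromere and kinetochore genes, 2 were called as higher under LA (INCENP and CENPF), 5 under PGN and 2 for the difference (INCENP and BIRC5). INCENP is the scaffold of the chromosomal passenger complex, which corrects faulty attachments through Aurora B. INCENP measured 72.2, 71.1 and 71.3 TPM in the LA libraries and 81.6, 77.8 and 80.01 TPM in the LA+RVT libraries. With PGN, INCENP measured 54.4, 53.8 and 58.3 TPM, and with PGN+RVT 76.3, 73.2 and 69.1 TPM. Both RVT groups of INCENP were clear of their controls. The INCENP effect of RVT was 0.16 ± 0.033 (log2, adjusted p = 0.0241) under LA, 0.39 ± 0.058 (adjusted p = 0.00621) under PGN and 0.23 ± 0.065 (adjusted p = 0.0348) as a difference between them. BIRC5, known as survivin, targets that complex to centromeres. BIRC5 measured 84.8, 89.5 and 88.99 TPM in the LA libraries and 88.2, 82.5 and 89.6 TPM in the LA+RVT libraries. With PGN, BIRC5 measured 84.9, 88.6 and 84.5 TPM, and with PGN+RVT 97.8, 98.8 and 96.5 TPM. LA values of BIRC5 were interleaved, and the PGN+RVT libraries lay above the PGN libraries. BIRC5 had a log2 fold change of -0.017 ± 0.044 under LA (adjusted p = 0.837) and of 0.18 ± 0.043 under PGN (adjusted p = 0.0294), with a difference of effects of 0.20 ± 0.058 (adjusted p = 0.0406). AURKB, the kinase of the complex, was not called in any comparison. The LA call of INCENP held in 1 of 6 fits with a library left out (without LA+RVT replicate 2) and was otherwise lost with adjusted p up to 0.0771, the PGN call of BIRC5 was lost in 6 of 6, with adjusted p up to 0.107, and the differences of INCENP and BIRC5 each held in 3 of 12, with adjusted p up to 0.0825 and 0.0917.

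CENPA, the histone H3 variant that marks centromeres, was called under PGN. CENPA measured 31.9, 35.01 and 27.6 TPM in the LA libraries and 36.8, 38.7 and 40.5 TPM in the LA+RVT libraries. With PGN, CENPA measured 31.2, 30.03 and 28.8 TPM, and with PGN+RVT 38.6, 38.5 and 38.1 TPM. RVT values of CENPA lay above control values in both arms, but the LA libraries were scattered. For CENPA, the log2 fold change was 0.29 ± 0.088 with an adjusted p of 0.0691 under LA and 0.35 ± 0.054 with an adjusted p of 0.00683 under PGN, and the difference of effects was 0.055 ± 0.11 (adjusted p = 0.787). CENPA was called under LA without LA replicate 2 (0.37, adjusted p = 0.0457) and with 1 spread over 12 libraries (adjusted p = 0.0208). CENPE, a kinesin that carries chromosomes to the metaphase plate, was likewise called under PGN. CENPE measured 23.2, 19.9 and 22.8 TPM in the LA libraries and 25.7, 24.4 and 22.98 TPM in the LA+RVT libraries. With PGN, CENPE measured 16.3, 13.2 and 13.2 TPM, and with PGN+RVT 20.6, 19.2 and 21.7 TPM. LA+RVT replicate 3 of CENPE fell below LA replicate 1, and PGN replicate 1 was the high control. The CENPE effect of RVT was 0.15 ± 0.076 (log2, adjusted p = 0.247) under LA, 0.50 ± 0.097 (adjusted p = 0.0161) under PGN and 0.35 ± 0.13 (adjusted p = 0.0927) as a difference between them. The difference for CENPE was called with GC and length trends removed (0.43, adjusted p = 0.00718) and without PGN replicate 1 (0.45, adjusted p = 0.0218). Its PGN call was lost without PGN replicate 2, PGN+RVT replicate 1 or PGN+RVT replicate 3, with adjusted p up to 0.0604. CENPF, a large coiled-coil protein of the outer kinetochore, had the second highest ratio of means among the LA calls (1.38). CENPF measured 67.7, 62.5 and 69.6 TPM in the LA libraries and 107, 77.5 and 90.4 TPM in the LA+RVT libraries. With PGN, CENPF measured 70.5, 65.9 and 59.97 TPM, and with PGN+RVT 90.5, 83.6 and 92.1 TPM. The LA+RVT libraries of CENPF spread widely, with replicate 1 highest. CENPF had a log2 fold change of 0.44 ± 0.11 under LA (adjusted p = 0.0398) and of 0.44 ± 0.071 under PGN (adjusted p = 0.00851), with a difference of effects of -0.0090 ± 0.14 (adjusted p = 0.980). The LA call of CENPF held only without LA+RVT replicate 2 among the 6 omissions, with adjusted p up to 0.118, and the sign of its difference between stimuli turned with several settings. NUF2 and NDC80, subunits of the complex that grips microtubules, were not called as fitted, with ratios between 1.05 and 1.298, though without PGN replicate 1 NDC80 was called under PGN (0.52, adjusted p = 0.00581) and for the difference (0.41, adjusted p = 0.0254).

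All 8 kinesins had positive log2 fold changes under PGN, 6 of them called, and 3 were called under LA (KIF20A, KIF20B and KIF14). For the difference, KIF20A, KIF2C and KIF18A were called. KIF20A, which brings the passenger complex to the central spindle, had the largest fold change of the 49 genes under PGN. KIF20A measured 38.6, 39.8 and 42.2 TPM in the LA libraries and 48.8, 51.3 and 48.4 TPM in the LA+RVT libraries. With PGN, KIF20A measured 35.02, 34.96 and 35.3 TPM, and with PGN+RVT 53.2, 55.1 and 55.3 TPM. The 3 PGN libraries of KIF20A were nearly equal, and so were the 3 PGN+RVT libraries above them. For KIF20A, the log2 fold change was 0.29 ± 0.049 with an adjusted p of 0.01000 under LA and 0.62 ± 0.047 with an adjusted p of 0.000455 under PGN, and the difference of effects was 0.33 ± 0.063 (adjusted p = 0.00527). KIF20A shares 132 exon bases with BRD8 and 68 with CDC23, both on the opposite strand. BRD8 averaged 89.3 TPM with LA, 76.04 with LA+RVT, 53.9 with PGN and 74.9 with PGN+RVT. CDC23 averaged 47.6, 45.8, 43.7 and 43.5 TPM in the same order. The part of BRD8 and CDC23 in the KIF20A values was not tested. KIF2C, also called MCAK, takes microtubules apart at centromeres. KIF2C measured 91.1, 89.9 and 90 TPM in the LA libraries and 87.99, 89.8 and 90.6 TPM in the LA+RVT libraries. With PGN, KIF2C measured 71.4, 63.3 and 70.3 TPM, and with PGN+RVT 96.1, 91.9 and 91.8 TPM. LA and LA+RVT values of KIF2C were level, while all PGN+RVT values lay above all PGN values. The KIF2C effect of RVT was -0.014 ± 0.030 (log2, adjusted p = 0.801) under LA, 0.44 ± 0.059 (adjusted p = 0.00379) under PGN and 0.46 ± 0.064 (adjusted p = 0.000829) as a difference between them. KIF18A, which damps chromosome oscillation, has the lowest mean of the 49 genes (12.1 TPM). KIF18A measured 12.3, 12.9 and 13.5 TPM in the LA libraries and 14.6, 12.3 and 13.6 TPM in the LA+RVT libraries. With PGN, KIF18A measured 9.79, 9.47 and 9.17 TPM, and with PGN+RVT 12.5, 12.2 and 13.1 TPM. KIF18A values overlapped under LA and were separate under PGN. KIF18A had a log2 fold change of 0.056 ± 0.078 under LA (adjusted p = 0.678) and of 0.38 ± 0.070 under PGN (adjusted p = 0.0138), with a difference of effects of 0.32 ± 0.098 (adjusted p = 0.0496). Omission of PGN+RVT replicate 1 or 3 ended the PGN call of KIF18A (adjusted p up to 0.0567), and its difference held in 1 of 12 omissions, with adjusted p up to 0.112.

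KIF14 and KIF20B act in cytokinesis, and KIF4A shapes chromosomes and the central spindle. KIF14 measured 18.3, 16.5 and 16.98 TPM in the LA libraries and 21.5, 21.2 and 20.5 TPM in the LA+RVT libraries. With PGN, KIF14 measured 13.4, 11.4 and 11.3 TPM, and with PGN+RVT 18.2, 14.8 and 17.9 TPM. All KIF14 values with RVT exceeded the controls. For KIF14, the log2 fold change was 0.28 ± 0.059 with an adjusted p of 0.0237 under LA and 0.46 ± 0.11 with an adjusted p of 0.0276 under PGN, and the difference of effects was 0.18 ± 0.12 (adjusted p = 0.375). KIF20B measured 21.01, 21.6 and 20.6 TPM in the LA libraries and 25.4, 24.8 and 24.5 TPM in the LA+RVT libraries. With PGN, KIF20B measured 18.8, 15.8 and 15.7 TPM, and with PGN+RVT 22.4, 19.96 and 22.3 TPM. KIF20B showed no overlap in either arm, with PGN replicate 1 the highest control. The KIF20B effect of RVT was 0.23 ± 0.047 (log2, adjusted p = 0.0207) under LA, 0.35 ± 0.090 (adjusted p = 0.0422) under PGN and 0.12 ± 0.10 (adjusted p = 0.514) as a difference between them. KIF4A measured 22.6, 22.3 and 23 TPM in the LA libraries and 24.7, 24.1 and 24.7 TPM in the LA+RVT libraries. With PGN, KIF4A measured 18.1, 17.3 and 16.98 TPM, and with PGN+RVT 22.8, 21.5 and 20.4 TPM. KIF4A was separate in both arms as well, narrowly under LA. KIF4A had a log2 fold change of 0.11 ± 0.045 under LA (adjusted p = 0.152) and of 0.29 ± 0.066 under PGN (adjusted p = 0.0267), with a difference of effects of 0.18 ± 0.073 (adjusted p = 0.130). Under LA, KIF14 kept its call without LA replicate 1 or LA+RVT replicate 3 and KIF20B without LA+RVT replicate 3 only, with adjusted p up to 0.0771 and 0.0728 in the other omissions. Under PGN, KIF14 kept its call in 2 of 6 omissions (without PGN replicate 1 or PGN+RVT replicate 2), KIF4A in 2 (without PGN replicate 1 or PGN+RVT replicate 3) and KIF20B in 1 (without PGN replicate 1), with adjusted p up to 0.101, 0.106 and 0.136. KIF11 and KIF23, the motors of spindle pole separation and of the midzone, were not called as fitted, with ratios between 0.983 and 1.16. Without PGN replicate 1, KIF23 was called under PGN (0.26, adjusted p = 0.0343) and KIF11 for the difference (0.26, adjusted p = 0.0461).

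Of 5 spindle assembly factors, 4 were called as higher under LA, 5 under PGN and 1 (NUSAP1) for the difference. TPX2 activates AURKA and seeds microtubules around chromosomes. TPX2 measured 178, 176 and 182 TPM in the LA libraries and 216, 205 and 207 TPM in the LA+RVT libraries. With PGN, TPX2 measured 183, 168 and 166 TPM, and with PGN+RVT 228, 219 and 231 TPM. TPX2 values with RVT lay well above those without in both arms. For TPX2, the log2 fold change was 0.22 ± 0.030 with an adjusted p of 0.00457 under LA and 0.39 ± 0.050 with an adjusted p of 0.00343 under PGN, and the difference of effects was 0.17 ± 0.058 (adjusted p = 0.0811). NUSAP1 bundles microtubules near chromosomes. NUSAP1 measured 237, 229 and 234 TPM in the LA libraries and 224, 236 and 227 TPM in the LA+RVT libraries. With PGN, NUSAP1 measured 142, 132 and 124 TPM, and with PGN+RVT 159, 148 and 162 TPM. No separation was seen for NUSAP1 under LA, and under PGN the gap was narrow. The NUSAP1 effect of RVT was -0.027 ± 0.030 (log2, adjusted p = 0.592) under LA, 0.24 ± 0.061 (adjusted p = 0.0401) under PGN and 0.27 ± 0.070 (adjusted p = 0.0260) as a difference between them. NUSAP1 shares 1787 of 2875 exon bases with AC087721.2 on the same strand, which averaged 22.3, 22.6, 35.9 and 39.2 TPM in the 4 groups, so its reads may be split between them.

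HMMR and DLGAP5 stabilise spindle microtubules, and ASPM acts at spindle poles. HMMR measured 98.3, 101 and 111 TPM in the LA libraries and 124, 114 and 119.5 TPM in the LA+RVT libraries. With PGN, HMMR measured 85.2, 69.3 and 68.8 TPM, and with PGN+RVT 101, 97.5 and 98.5 TPM. HMMR was higher with RVT in every library, and PGN replicate 1 was again the highest PGN control. HMMR had a log2 fold change of 0.20 ± 0.053 under LA (adjusted p = 0.0450) and of 0.41 ± 0.084 under PGN (adjusted p = 0.0190), with a difference of effects of 0.21 ± 0.11 (adjusted p = 0.234). DLGAP5 measured 35.9, 34.99 and 37.7 TPM in the LA libraries and 45.3, 43.4 and 42.4 TPM in the LA+RVT libraries. With PGN, DLGAP5 measured 37.05, 30.8 and 29.5 TPM, and with PGN+RVT 44.3, 41.03 and 45.4 TPM. DLGAP5 was likewise separate in both arms, with PGN replicate 1 the highest PGN control. For DLGAP5, the log2 fold change was 0.26 ± 0.048 with an adjusted p of 0.0133 under LA and 0.42 ± 0.092 with an adjusted p of 0.0239 under PGN, and the difference of effects was 0.16 ± 0.11 (adjusted p = 0.391). ASPM measured 33.5, 31.7 and 33.3 TPM in the LA libraries and 37.1, 39.2 and 36.9 TPM in the LA+RVT libraries. With PGN, ASPM measured 25.6, 21.4 and 20.9 TPM, and with PGN+RVT 29.6, 26.6 and 31.4 TPM. ASPM was separate in both arms, by a small gap under PGN. The ASPM effect of RVT was 0.20 ± 0.047 (log2, adjusted p = 0.0347) under LA, 0.36 ± 0.097 (adjusted p = 0.0482) under PGN and 0.16 ± 0.11 (adjusted p = 0.383) as a difference between them. The ASPM call under LA was lost in 6 of 6 omissions and that of HMMR in 5 (kept without LA replicate 3), with adjusted p up to 0.107 and 0.129. The PGN calls of NUSAP1, DLGAP5 and ASPM held without PGN replicate 1 only, and that of HMMR without PGN replicate 1 or 3, with adjusted p otherwise up to 0.128, 0.0829, 0.141 and 0.0692. Without PGN replicate 1 the difference was called for TPX2 (0.21, adjusted p = 0.0154) and HMMR (0.31, adjusted p = 0.0171), and with GC and length trends removed for TPX2 (0.18, adjusted p = 0.0211) and ASPM (0.23, adjusted p = 0.0295). The difference called for NUSAP1 held in 5 of 12 omissions, with adjusted p up to 0.0615.

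Of 4 cytokinesis genes, ANLN and RACGAP1 were called as higher under LA and PRC1 and RACGAP1 under PGN. ANLN, the anillin of the contractile ring, was raised under LA. ANLN measured 181, 186 and 191 TPM in the LA libraries and 220.1, 227 and 219 TPM in the LA+RVT libraries. With PGN, ANLN measured 209, 176 and 182 TPM, and with PGN+RVT 203, 184 and 209.9 TPM. LA+RVT values of ANLN lay above LA values, and the PGN groups overlapped because PGN replicate 1 was nearly as high as the top PGN+RVT library. ANLN had a log2 fold change of 0.25 ± 0.030 under LA (adjusted p = 0.00293) and of 0.078 ± 0.078 under PGN (adjusted p = 0.547), with a difference of effects of -0.18 ± 0.089 (adjusted p = 0.226). RACGAP1, part of the centralspindlin complex, was called as higher in both arms. RACGAP1 measured 108, 103 and 103 TPM in the LA libraries and 119, 118 and 121 TPM in the LA+RVT libraries. With PGN, RACGAP1 measured 87.2, 87.1 and 82.2 TPM, and with PGN+RVT 106, 102 and 104 TPM. RACGAP1 controls and RVT libraries were separate in both arms. For RACGAP1, the log2 fold change was 0.18 ± 0.031 with an adjusted p of 0.00975 under LA and 0.28 ± 0.046 with an adjusted p of 0.00872 under PGN, and the difference of effects was 0.10 ± 0.051 (adjusted p = 0.252). PRC1, which cross-links the antiparallel microtubules of the midzone (GRCh38, chromosome 15, 90966038 to 90995629), was the 1 member with all LA+RVT values below all LA values. PRC1 measured 146, 144 and 141 TPM in the LA libraries and 128, 134 and 138 TPM in the LA+RVT libraries. With PGN, PRC1 measured 94.6, 102 and 103 TPM, and with PGN+RVT 129, 128 and 126 TPM. Its PGN libraries went the other way, with the RVT group above. The PRC1 effect of RVT was -0.11 ± 0.037 (log2, adjusted p = 0.0999) under LA, 0.35 ± 0.048 (adjusted p = 0.00422) under PGN and 0.46 ± 0.058 (adjusted p = 0.000439) as a difference between them. PRC1 passed the test as lower under LA in 3 of 3 rescalings, with values of -0.15 (library medians equalised, adjusted p = 0.0366), -0.15 (mitochondrial and ribosomal protein genes left out, adjusted p = 0.0407) and -0.16 (GC and length trend removed, adjusted p = 0.0335). It shares 3181 of 5525 exon bases with AC068831.6 on the same strand, which averaged 55.4 TPM with LA, 63.96 with LA+RVT, 45.2 with PGN and 45.5 with PGN+RVT. The part of that gene in the PRC1 values was not tested. ECT2, the exchange factor that triggers the ring, was not called, with ratios of 0.994 under LA and 1.095 under PGN.

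Among the anaphase-promoting complex group, CDC20, UBE2C and UBE2S were called as higher under LA and CDC20, UBE2C, PTTG1 and ESPL1 under PGN. CDC20 is the activator that brings substrates to the complex. CDC20 measured 183, 174 and 179.6 TPM in the LA libraries and 197, 206 and 208 TPM in the LA+RVT libraries. With PGN, CDC20 measured 234, 232 and 231 TPM, and with PGN+RVT 299, 286 and 286 TPM. CDC20 was higher with RVT in every library of both arms. CDC20 had a log2 fold change of 0.19 ± 0.033 under LA (adjusted p = 0.0129) and of 0.32 ± 0.036 under PGN (adjusted p = 0.00193), with a difference of effects of 0.14 ± 0.046 (adjusted p = 0.0727). UBE2C, the E2 enzyme that starts ubiquitin chains, is the most abundant of the 49 genes, with a mean of 419 TPM. UBE2C measured 398, 409.7 and 397 TPM in the LA libraries and 427, 436 and 439.5 TPM in the LA+RVT libraries. With PGN, UBE2C measured 373, 380.2 and 373 TPM, and with PGN+RVT 471, 476 and 442 TPM. UBE2C gained little under LA and more under PGN, without overlap. For UBE2C, the log2 fold change was 0.11 ± 0.024 with an adjusted p of 0.0226 under LA and 0.30 ± 0.039 with an adjusted p of 0.00357 under PGN, and the difference of effects was 0.19 ± 0.044 (adjusted p = 0.0142). The difference of UBE2C was not called with library medians equalised (0.17, adjusted p = 0.0823). Its LA call was lost without LA replicate 1, LA replicate 3, LA+RVT replicate 2 or LA+RVT replicate 3, with adjusted p up to 0.0786.

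PTTG1 is securin, the inhibitor that the complex destroys, and ESPL1 is separase, the protease it frees to cut cohesin. PTTG1 measured 229.5, 237 and 229 TPM in the LA libraries and 241, 229.6 and 250.1 TPM in the LA+RVT libraries. With PGN, PTTG1 measured 181, 168 and 159.7 TPM, and with PGN+RVT 223, 228 and 225 TPM. PTTG1 was interleaved under LA, and under PGN its 3 RVT libraries agreed closely and lay above. The PTTG1 effect of RVT was 0.050 ± 0.036 (log2, adjusted p = 0.410) under LA, 0.41 ± 0.052 (adjusted p = 0.00316) under PGN and 0.36 ± 0.064 (adjusted p = 0.00350) as a difference between them. ESPL1 measured 14.6, 14.7 and 13.02 TPM in the LA libraries and 18.9, 15.9 and 14.3 TPM in the LA+RVT libraries. With PGN, ESPL1 measured 12.04, 12 and 12.3 TPM, and with PGN+RVT 14.6, 14.6 and 15.9 TPM. ESPL1 overlapped under LA, where replicate 1 with RVT was the highest library. ESPL1 had a log2 fold change of 0.19 ± 0.11 under LA (adjusted p = 0.271) and of 0.29 ± 0.067 under PGN (adjusted p = 0.0290), with a difference of effects of 0.093 ± 0.13 (adjusted p = 0.691). The ESPL1 call was lost in 6 of 6 omissions of a PGN library, with adjusted p up to 0.0956.

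UBE2S, the E2 enzyme that lengthens chains on substrates of the complex (GRCh38, chromosome 19, 55399745 to 55407777), had a ratio of means of 3.09 under LA, where no other member called exceeded 1.38. UBE2S measured 64.8, 62.7 and 62.6 TPM in the LA libraries and 199.6, 223 and 166 TPM in the LA+RVT libraries. With PGN, UBE2S measured 108, 140.2 and 64.2 TPM, and with PGN+RVT 84.04, 85.8 and 85.5 TPM. The 3 LA libraries were nearly equal and the LA+RVT libraries far above them, while the PGN libraries spread on both sides of the 3 PGN+RVT libraries, which were close together. For UBE2S, the log2 fold change was 1.60 ± 0.098 with an adjusted p of 0.000302 under LA and -0.22 ± 0.25 with an adjusted p of 0.597 under PGN, and the difference of effects was -1.82 ± 0.30 (adjusted p = 0.00215). Without PGN replicate 3 UBE2S was called as lower under PGN (log2 fold change -0.53, adjusted p = 0.0255), and without PGN replicate 2 its value was 0.028. A pair of genes unrelated to mitosis, picked after values were seen, showed a like pattern over the 12 libraries. How many other genes share it was not counted. NDUFAF8, an assembly factor of mitochondrial complex I, stood at 42.9, 45.5 and 40.3 TPM with LA, 157, 153 and 122 with LA+RVT, 109, 131 and 58.5 with PGN and 65.99, 51.2 and 59.4 with PGN+RVT. C4orf48 stood at 13.7, 16.1 and 7.01, 51.8, 55.8 and 37.5, 20.6, 38.99 and 12.2 and 15.3, 15.6 and 8.41 TPM in the same order. For all 3 genes PGN replicate 2 was the highest and PGN replicate 3 the lowest PGN library. Their longest transcripts hold 55.7% (UBE2S), 63.02% (NDUFAF8) and 73.2% (C4orf48) GC, and no GC value over all genes was set beside these. UBE2S kept its LA call in 15 of 15 alternatives, including GC and length trends removed and each omission of a library. Over those omissions its LA log2 fold change ran from 1.51 to 1.72, and its difference was called in 20 of 20 alternatives. For the pattern that the 3 genes share, the part of base composition or of any 1 library was not tested.

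TOP2A and MKI67 make up the chromosome group. TOP2A, the topoisomerase that untangles sister chromatids, was called under PGN and for the difference. TOP2A measured 186, 179.8 and 187 TPM in the LA libraries and 193, 198 and 199.6 TPM in the LA+RVT libraries. With PGN, TOP2A measured 123, 113 and 116 TPM, and with PGN+RVT 155, 145 and 159.6 TPM. LA values of TOP2A lay just under LA+RVT values, and the PGN groups were far apart. The TOP2A effect of RVT was 0.093 ± 0.029 (log2, adjusted p = 0.0735) under LA, 0.38 ± 0.054 (adjusted p = 0.00519) under PGN and 0.28 ± 0.061 (adjusted p = 0.00934) as a difference between them. MKI67, which coats mitotic chromosomes and is a common marker of dividing cells, was looked up after its values were seen and was not called in any comparison. MKI67 measured 171, 159.7 and 158 TPM in the LA libraries and 163, 163 and 159.9 TPM in the LA+RVT libraries. With PGN, MKI67 measured 142, 138 and 144 TPM, and with PGN+RVT 142, 125 and 141 TPM. MKI67 values overlapped in both arms. MKI67 had a log2 fold change of -0.0075 ± 0.037 under LA (adjusted p = 0.919) and of -0.055 ± 0.057 under PGN (adjusted p = 0.556), with a difference of effects of -0.048 ± 0.069 (adjusted p = 0.711).

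Other cell cycle genes, from lists apart from the 49, did not all move this way. Of 52 other mitotic genes tested, 11 were higher and 4 lower under LA (median log2 fold change 0.036) and 21 higher and 2 lower under PGN (median 0.18). In shares, 21.2% were higher and 7.69% lower under LA, against 10.7% and 5.07% of all genes. Under PGN 40.4% were higher and 3.85% lower, against 10.6% and 4.92%. TUBA1C, a tubulin of the spindle and cytoskeleton, rose under LA from 543 ± 22.5 TPM to 757 ± 14.03 TPM (a log2 change of 0.48 with an adjusted p of 0.000461) (means ± SD, n = 3, here and below), and TUBB4B, a beta tubulin, from 811 ± 20.5 TPM to 985 ± 25.4 TPM (a log2 change of 0.28 with an adjusted p of 0.00150). Both tubulins were called as higher under PGN too, TUBA1C at 0.20 (adjusted p = 0.0150) and TUBB4B at 0.28 (adjusted p = 0.00438). PIMREG, a mitotic regulator, rose under PGN from 17.8 ± 0.838 TPM to 31.2 ± 1.27 TPM (a log2 change of 0.77 with an adjusted p of 0.000591), and GTSE1, a microtubule-binding protein of G2 and mitosis, from 37.4 ± 0.877 TPM to 52.4 ± 1.94 TPM (a log2 change of 0.48 with an adjusted p of 0.00188). GTSE1 was called as higher under LA too (0.25, adjusted p = 0.0155), and PIMREG was not called there (-0.0025, adjusted p = 0.987). The 17 other genes of the anaphase-promoting complex are 14 subunits, the activator FZR1, the E2 enzyme UBE2D1 and the inhibitor FBXO5. They gave 0 calls under LA, where 10.7% of all genes were higher and 5.07% lower. An unadjusted p below 0.05 was found under LA for 4 of the 17, and for 4716 of all 15409 genes tested. Under PGN they gave 2 higher and 1 lower, and their medians were 0.031 under LA and 0.070 under PGN. Under PGN these shares, 11.8% higher and 5.88% lower, lay near those of all genes (10.6% and 4.92%). The subunits called as higher were ANAPC2, from 28.5 ± 1.15 TPM to 35.6 ± 0.396 TPM (a log2 change of 0.31 with an adjusted p of 0.0115), and ANAPC5, from 103 ± 2.65 TPM to 121 ± 3.52 TPM (a log2 change of 0.23 with an adjusted p of 0.0157).

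DREAM, MuvB and RB genes, a list of regulators that includes the E2F factors, were 1 higher and 4 lower of 18 under LA (median -0.048) and 0 higher and 3 lower under PGN (median -0.17). Those called as lower were MYBL2, E2F1, E2F2 and E2F7 under LA and MYBL2, E2F1 and RBBP4 under PGN. The MuvB genes LIN9, LIN37, LIN52 and LIN54 and the RB family genes RB1, RBL1 and RBL2 were not called in either arm. In shares, 5.56% were higher and 22.2% lower under LA, against 10.7% and 5.07% of all genes. Under PGN 0% were higher and 16.7% lower, against 10.6% and 4.92%. E2F1, the activator of S-phase genes, fell under LA from 66.04 ± 0.936 TPM to 53.8 ± 2.12 TPM (a log2 change of -0.29 with an adjusted p of 0.00550) and under PGN from 49.4 ± 0.983 TPM to 37.1 ± 1.48 TPM (a log2 change of -0.40 with an adjusted p of 0.00359). MYBL2, the B-MYB partner of MuvB, fell under PGN from 255 ± 5.14 TPM to 212 ± 1.68 TPM (a log2 change of -0.26 with an adjusted p of 0.00419), and E2F4, a repressor in DREAM, rose under LA from 88.4 ± 3.604 TPM to 104 ± 3.97 TPM (a log2 change of 0.23 with an adjusted p of 0.0168). MYBL2 was called as lower under LA too (-0.14, adjusted p = 0.0367), and E2F4 was not called under PGN (0.019, adjusted p = 0.831). G1 cyclins, kinases and inhibitors gave 4 higher and 2 lower of 16 under LA (median 0.075) and 2 higher and 4 lower of 15 under PGN (median -0.039). As shares these are 25% higher and 12.5% lower under LA, against 10.7% and 5.07% of all genes, and 13.3% higher and 26.7% lower under PGN, against 10.6% and 4.92%. CCND1, the D cyclin of growth signals, rose under LA from 193 ± 4.69 TPM to 301 ± 9.86 TPM (a log2 change of 0.64 with an adjusted p of 0.000199), and CCNE2, a cyclin of S-phase entry, fell from 26.99 ± 1.501 TPM to 20.8 ± 1.101 TPM (a log2 change of -0.36 with an adjusted p of 0.0124) and under PGN from 20.1 ± 1.85 TPM to 13.04 ± 0.576 TPM (a log2 change of -0.58 with an adjusted p of 0.00499). CCND1 was called as higher under PGN too (0.21, adjusted p = 0.0147). The 46 DNA replication genes gave 0 higher and 20 lower under LA (median -0.15) and 0 higher and 21 lower under PGN (median -0.20). The lower shares are 43.5% under LA and 45.7% under PGN, against 5.07% and 4.92% of all genes. PCNA had the smallest adjusted p of this list under LA (a log2 change of -0.44 with an adjusted p of 0.000624). It was called as lower under PGN too (-0.52, adjusted p = 0.000427). MCM5, a subunit of the replicative helicase, fell under LA from 119 ± 3.295 TPM to 88.97 ± 5.64 TPM (a log2 change of -0.42 with an adjusted p of 0.00313) and under PGN from 118 ± 5.17 TPM to 69.7 ± 1.94 TPM (a log2 change of -0.75 with an adjusted p of 0.000272), and MCM6, of the same helicase, from 85.5 ± 2.34 TPM to 63.9 ± 0.411 TPM (a log2 change of -0.41 with an adjusted p of 0.000805) and from 78.2 ± 3.12 TPM to 44.9 ± 1.55 TPM (a log2 change of -0.79 with an adjusted p of 0.000272).

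**Figure D5:**
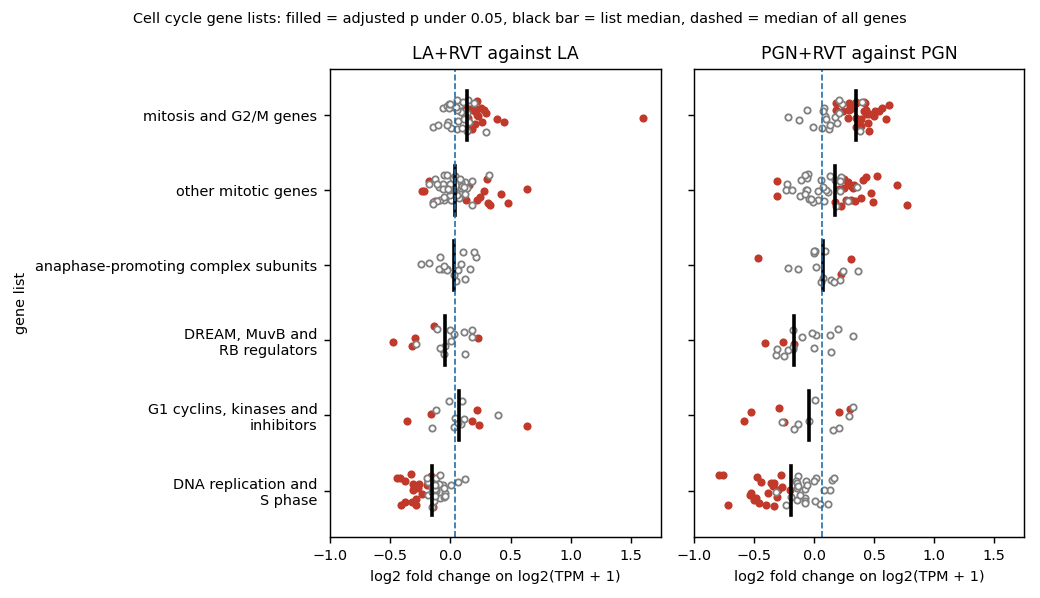
Log2 fold changes with RVT (horizontal axes) of the 49 genes and of 5 other cell cycle lists (rows), under LA on the left and PGN on the right, with 1 point per gene, filled for an adjusted p under 0.05, a black bar at the list median and a dashed line at the median of all genes. The 49 genes lie mostly above 0 in both panels (40 of 49 under LA and 45 under PGN) and replication genes mostly below (medians of -0.15 and -0.20).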

How the data were processed

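RNA-seq of SZ95 sebocytes gave 12 libraries, grouped by their titles. The authors deposited 2 tables, 1 per stimulus, with 1 column per library. The deposited values were treated as TPM from their sums, since the headers name no unit. HISAT2 2.1.0, RSEM 1.3.1, DESeq2 1.24.0 and GRCh38.p13 are named in the submitters' processing notes, with no role or order, and no source used here gives the annotation release. TPM is a share of a library and holds no depth, so that a rise of some genes lowers the TPM of the rest. Genes whose mean over a fit's libraries was 1 TPM or more (49 of 49 members in each) were analysed as log2(TPM + 1). The model of limma 3.58.1 in R 4.3.3 (trended prior, two-sided, Benjamini-Hochberg, threshold 0.05) was fitted to all such genes, on 6 libraries per stimulus and on 12 for the difference. The fit was tested on simulated data. P-values reflect only how these libraries vary, since nothing says that they came from separate culture days. Symbols are those of the tables, joined by identifier, and positions, length and GC content come from GENCODE 29, which covered 99.1% of tested genes. The members and lists were chosen with earlier results of these data known. Members were described in full where any of the 3 fits called them, up to 6 per role by smallest adjusted p (33 genes, including BUB3 as the highest in a role with no call). From each other list, up to 2 called genes with the smallest adjusted p under a stimulus were shown, and other called genes were left out. Alternatives were other pseudocounts (0.1 and 5), no filter or a mean of 5 TPM, equalised library medians, rescaling without 123 mitochondrial and ribosomal protein genes, removal of GC and length trends (splines with 4 degrees of freedom), a replicate block, 1 spread over 12 libraries, and omission of each library.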

Additional observations from a re-analysis of the deposited data

Results flagged for a closer look

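The effect of RVT differed between the LA and PGN arms, by limma's test of the difference itself, for 17 of the 49 genes (14.8% of all genes tested passed in either direction). Stimulus cannot be told apart from other differences between the arms. Given as the log2 fold change under PGN minus that under LA, the differences for kinases, cyclins and regulators were 0.26 (CCNB1), 0.36 (CCNB2), 0.33 (PLK1), 0.39 (AURKA), 0.47 (NEK2) and 0.62 (CDC25C). Centromere genes gave 0.23 (INCENP) and 0.20 (BIRC5), and kinesins 0.33 (KIF20A), 0.46 (KIF2C) and 0.32 (KIF18A). NUSAP1 gave 0.27, PRC1 0.46, UBE2C 0.19, PTTG1 0.36 and TOP2A 0.28. UBE2S had the opposite sign, at -1.82, with LA+RVT libraries far above LA libraries and scattered PGN libraries. For CDC25C, BIRC5, KIF2C, NUSAP1 and PRC1 the LA fold change was below 0 and not called as fitted, while the PGN one was called as higher.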

How the results depend on the processing

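Depth is unknown, so counting error could not be set against the spread of 3 libraries per group. Under LA, 20 members were called, and 13 were without mitochondrial and ribosomal protein genes, 11 with the replicate block and 12 to 15 when a library was left out. Members called as higher under LA were 13 with equalised medians, 12 without mitochondrial and ribosomal protein genes, 11 with the replicate block and 12 to 15 with a library left out. Of all genes, 2426 were called under LA, against 1610 with no filter (29895 genes tested instead of 15409), 1502 with the block and 1428 to 1690 with a library left out. Under PGN, 31 members were called as higher, and 19 to 34 were called, and 19 to 34 called as higher, with a library left out. Of all genes 2277 were called under PGN, against 1384 with no filter and 1095 to 1861 with a library left out. The 17 calls for the difference stayed between 13 and 20 under all settings. The sign of uncalled values turned for BUB3 under LA (-0.022 with equalised medians, -0.022 without mitochondrial and ribosomal protein genes and -0.0093 with GC and length trends removed), BIRC5 under LA (-0.041 to 0.019 over omissions, positive without LA+RVT replicate 2) and UBE2S under PGN (-0.53 without PGN replicate 3 to 0.028 without PGN replicate 2). Differences between stimuli turned for BUB3 (-0.013 without PGN replicate 1 to 0.079), CENPA (-0.022 without LA replicate 2 to 0.14) and CENPF (0.0080 without mitochondrial and ribosomal protein genes, 0.037 with GC and length trends removed, and over omissions -0.12 to 0.11, with 0.035, 0.11, 0.045 and 0.033 without LA replicate 2, LA+RVT replicate 1, PGN replicate 1 and PGN+RVT replicate 2). The cause was not tested in any of these. Same-numbered libraries did not visibly deviate together (correlations of -0.070, -0.0068 and -0.029 under LA and 0.032, 0.041 and 0.0081 under PGN). Those of differently numbered libraries ran from -0.041 to 0.058. A weak batch shared by number, or one limited to few genes, could not be seen this way. With the replicate block 11 members were called under LA, 25 under PGN and 13 for the difference, of 1502, 1574 and 1730 genes in all. For all genes, the calls for the difference went from 1173 higher and 1067 lower to 983 and 1210 with equalised medians and to 1127 and 1394 with GC and length trends removed.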

Other observations

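A few cell cycle regulators outside the 49 genes stood apart from them, named here after their values were seen. CDK6, a kinase of G1, fell under PGN from 24.4 ± 2.59 TPM to 16.6 ± 1.56 TPM (a log2 change of -0.53 with an adjusted p of 0.0145), and under LA it went from 12.97 ± 0.505 TPM to 13.8 ± 0.447 TPM (a log2 change of 0.085 with an adjusted p of 0.407). FBXO5, also called EMI1, an inhibitor of the anaphase-promoting complex that is made in S phase, fell under PGN from 19.8 ± 2.39 TPM to 13.96 ± 0.619 TPM (a log2 change of -0.47 with an adjusted p of 0.0176). Under LA, FBXO5 was not called (-0.18, adjusted p = 0.117). MAD1L1, the checkpoint partner of MAD2L1, rose under LA from 8.22 ± 1.15 TPM to 13.3 ± 1.27 TPM (a log2 change of 0.64 with an adjusted p of 0.0133). Under PGN, MAD1L1 went from 27.1 ± 2.63 TPM to 25.8 ± 3.70 TPM and was not called (-0.073, adjusted p = 0.710). Its difference of effects was called (-0.71, adjusted p = 0.0167). All values with ± are mean ± SD of 3 libraries, and the adjusted p are from limma.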
